A study of Mus musculus with 12 samples.

Results

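The nuclear-encoded genes of respiratory complexes II to V and of cytochrome c were described in the soleus of mice, a postural calf muscle with many slow fibres. Members were the genes that the authors' deposited tables call protein coding and whose symbol is Sdha, Sdhb, Sdhc, Sdhd, Cyc1 or Cycs, or starts with Uqcr, Cox4, Cox5, Cox6, Cox7, Cox8 or Atp5. This rule uses no measured value and found 48 of 28997 genes, 4 in complex II, 9 in complex III, 1 for cytochrome c, 17 in complex IV and 17 in complex V. The 17 of complex IV were grouped by symbol and include Cox5b-ps and Cox7a2l, which were not taken as subunits. Another 10 symbols fitted the pattern but had another biotype and were not counted. Of the 48 members, 47 had a total of at least 100 normalised reads over all libraries. The other was Cox6b2, a testis isoform of complex IV, with a total of 79.4.

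Complex II, succinate dehydrogenase, passes electrons from succinate to ubiquinone, complex III passes them on to cytochrome c, and complex IV, cytochrome c oxidase, passes them to oxygen. Complexes III and IV pump protons across the inner mitochondrial membrane, and complex V, the ATP synthase, lets them flow back and makes ATP. Slow muscle fibres depend on this chain for sustained work, and heart and skeletal muscle use their own isoforms of several complex IV subunits.

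The transcriptome was measured by stranded mRNA sequencing of soleus from 12 mice, 3 in each of 4 groups, and each library has its own number in the labels. The groups were Cdh5Cre-NOX1CKO mice on a high fat diet, Cdh5Cre-NOX1CKO mice on chow, Cdh5cre-WT mice on a high fat diet and Cdh5cre-WT mice on chow, with 8 weeks on the diet, and all of them carry the Cdh5-driven Cre, which acts in endothelial cells. The ages, sexes and strain are not given in the sources used here. The authors' comparisons are between groups coded G1 to G4, and the labels do not say which mice a code stands for, so groups are named by code and no difference is assigned to genotype or diet. The deposited tables hold 1 value per gene and comparison and none per library, so values per mouse and a mean ± SD cannot be given. Levels below are estimates for each group that give the deposited total if every fold change is a plain ratio of group means. They are called implied levels, in normalised reads per library. For genes with few reads the deposited fold changes need not be such ratios, so implied levels are least certain there.

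The tables summed to a mean of 24905255 normalised reads per library, of which the 48 members took 1.64%. Nox1, the gene targeted in the knockout, had a total of 25.2 normalised reads over the 12 libraries in the authors' deposited tables, so its loss from endothelial cells was not detectable at this depth. Myh7, the slow myosin heavy chain, and Myh2, the fast oxidative one, took 1.004% and 1.498% of all normalised reads, so defining markers of the labelled muscle were abundant. The ribosomal RNA gene CT010467.1 took 2.89% of them, and in the authors' deposited tables it fell by 0.96 on the log2 scale in G4 versus G3 (adjusted p = 2.48e-05) and fell by 0.59 in G4 versus G2 (adjusted p = 0.0203). Its part in the members' values below was not tested.

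Levels between genes were compared as RPKM, which scales normalised reads to the length of the principal annotated transcript and to all reads, pooled over all 12 libraries. Atp5b, the catalytic beta subunit of the ATP synthase, was highest at 1444 RPKM, followed by Cox6a2, the heart and muscle isoform of a small complex IV subunit, at 1186, and Atp5a1, the alpha subunit, at 1006. In complex II, Sdhb, the iron-sulfur subunit, stood at 398, Sdha, the flavoprotein that oxidises succinate, at 298, and the membrane anchors Sdhd and Sdhc at 181 and 101. In complex III, Uqcrc1, a core subunit, stood highest at 416 and Uqcrc2, the other core subunit, lowest at 228. Cycs, the somatic cytochrome c, stood at 41.0. With no values per library, neighbours in this order cannot be separated by their spread. The levels also depended on the length used. With the mean transcript length Sdha stood at 1121, above Sdhb at 397, Uqcrc1 at 746 and Uqcrc2 at 510, the second highest of complex III, while with the longest transcript the lowest of complex III was Uqcrq at 173.

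**Figure D1:**
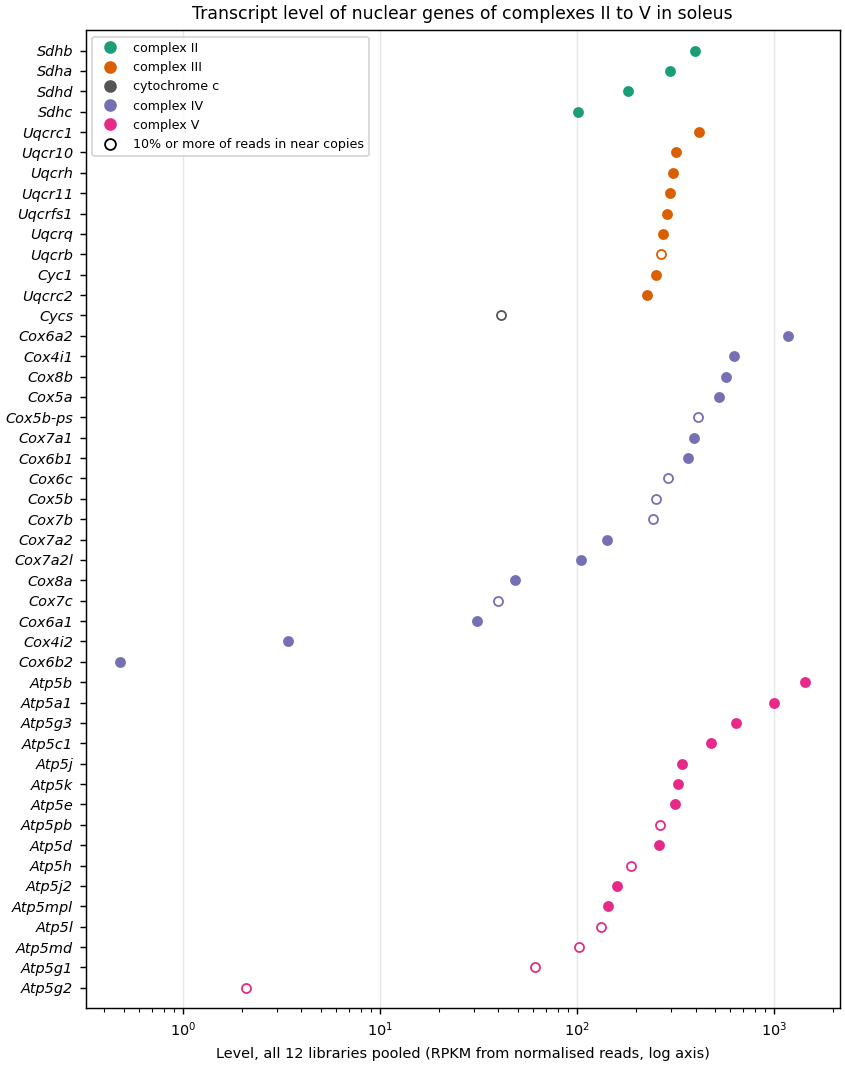
Level of each member in RPKM from normalised reads, pooled over the 12 libraries, on a log axis, with members grouped and coloured by complex and ordered by level. Open points have at least 10% of their summed reads in near copies. Levels run up to 1444 for Atp5b, and Cox4i2, Atp5g2 and Cox6b2 lie at 3.40, 2.09 and 0.480. Atp5o has no point because its symbol matched more than 1 annotated gene.

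The muscle isoforms of complex IV outweighed their ubiquitous counterparts. Per length, Cox6a2 was 38.2 times the level of Cox6a1, the ubiquitous isoform, and Cox8b 11.8 times that of Cox8a. Cox7a1, the heart and muscle isoform of subunit 7a, was 2.78 times the level of Cox7a2, and 1.87 times with the mean transcript length. Cox4i1, the general form of the largest nuclear subunit, was 185 times the level of Cox4i2, the lung isoform that low oxygen is known to induce, and Cox6b1 was 761 times the level of Cox6b2. Among the genes for the membrane ring of the ATP synthase, which encode the same mature subunit c behind different import peptides, Atp5g3 was 10.4 times the level of Atp5g1 and 306 times that of Atp5g2. Reads of Atp5g1 and Atp5g2 are shared with near copies, so the ring ratios are uncertain.

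Near copies matter for this gene group because small, highly expressed mitochondrial subunits have left many processed pseudogenes in the mouse genome. A near copy was a listed gene whose transcript matched the member's on the same strand at 95% identity or more over at least 150 bases and at least 50% of the shorter transcript, a definition chosen after the data were seen. Of the 48 members, 18 had a listed near copy, 14 had at least 10% of the summed reads in the copies and 7 had at least 50%. Reads from a stretch that 2 genes share cannot be placed from their sequence, so the deposited values of these members are uncertain. Atp5g2 (chr15:102662864-102672352, minus strand, GRCm38) had 365 normalised reads in total, against 42726 for its copy Gm10175 (chr7:23946646-23947290, minus strand), and 99.2% of the summed reads lay in copies. The 2 share all 441 coding bases. Coding bases 191 to 250 of Atp5g2, which stand unchanged in Gm10175, are shown as an example of sequence that gives no means to tell them apart:

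Atp5g2 and Gm10175: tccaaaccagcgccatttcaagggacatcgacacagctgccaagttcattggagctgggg

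Cycs (chr6:50562563-50566538, minus strand) had a total of 38244 normalised reads, and 73.3% of the summed reads lay in its copies, chiefly Gm10053 (chr19:24875686-24876631, plus strand) with 62045 and Gm10108 (chr5:13121448-13121766, minus strand) with 24979, while Gm13772 had 17919.6. Gm10053 matches all 318 coding bases of Cycs, and Gm10108 differs at 2 of them. Both differences lie in coding bases 1 to 60, where capitals mark them:

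Cycs: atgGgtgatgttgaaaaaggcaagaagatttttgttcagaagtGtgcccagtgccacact
Gm10108: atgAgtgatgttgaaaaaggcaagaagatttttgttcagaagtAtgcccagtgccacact

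Cox7c (chr13:86044816-86046904, minus strand), a small nuclear subunit of complex IV, had a total of 6397 normalised reads, against 47006 for Gm12338 (chr11:75599763-75599954, minus strand) and 24538 for Cox7c-ps1 (chr17:25901856-25902227, plus strand). Its level of 39.6 RPKM is therefore the level of the share assigned to it, with 91.8% of the summed reads in copies. Cox7c-ps1 differs at 2 of 192 coding bases, 1 of them in coding bases 1 to 60, marked by a capital:

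Cox7c: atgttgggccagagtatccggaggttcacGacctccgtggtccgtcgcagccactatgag
Cox7c-ps1: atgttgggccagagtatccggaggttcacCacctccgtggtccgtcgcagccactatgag

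The other members with at least 50% of the summed reads in copies were Atp5l with 70.5%, Atp5h with 60.3% and Atp5g1 with 58.2%, subunits g, d and c of the ATP synthase, and Cox5b-ps with 57.7%, a retrocopy whose other copy is the member Cox5b. Uqcrfs1, Cox6a1, Cox6a2, Cox8a and Cox8b had no listed near copy.

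**Figure D2:**
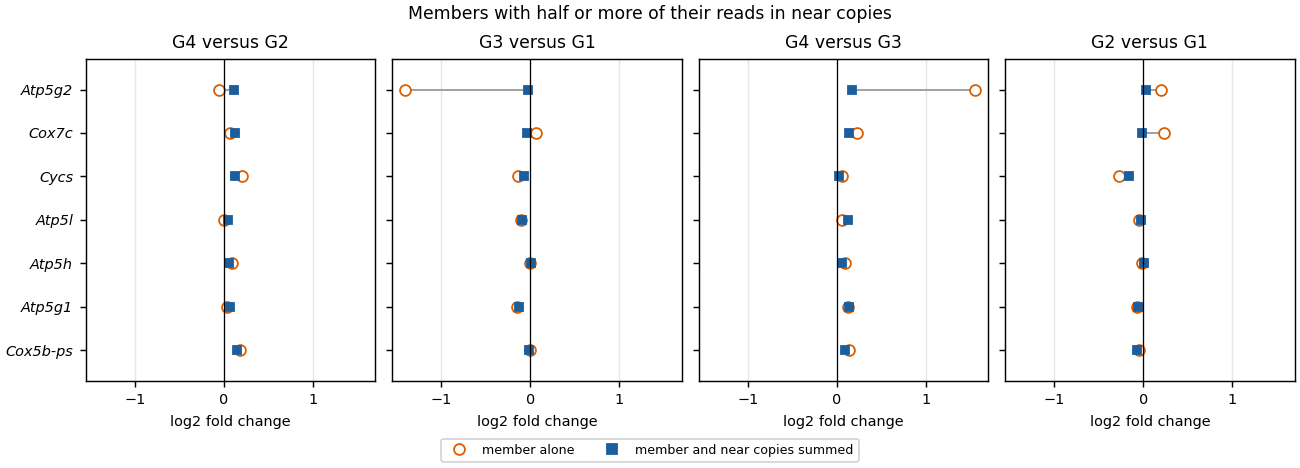
Log2 fold change in the 4 comparisons for the members with at least 50% of their summed reads in near copies. Open circles are the member alone and filled squares the member and its near copies summed from implied levels. Atp5g2 alone lies at -1.41 in G3 versus G1 and 1.55 in G4 versus G3, and its summed values are -0.03 and 0.17.

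No member passed an adjusted p of 0.05 in any comparison. For G4 versus G2, 0 of 47 members were called in the authors' deposited table, against 1.02% of genes called higher and 0.351% lower. The 47 members and the 14539 genes behind these shares were those with an adjusted p. In the authors' deposited table for G3 versus G1, 0 of 48 members were called, against 0.169% of all genes called higher and 0.0414% called lower. The count was also 0 of 48 in the authors' deposited table for G4 versus G3, against 0% called higher and 0.0394% called lower. For G2 versus G1 the authors' deposited table listed 38 members, all with a log2 of 0 or below. Of these 0 were called, against 0.00639% of the 15652 listed genes called lower. The 10 members with a positive value, rebuilt from the other comparisons, were not called either, against 0% of 15494 genes called higher. These 15494, whose totals reached 100, were also the base for the interaction, the averages, unadjusted p and positive values. Calls used 17752 genes for G4 versus G3 and all 28997 for G3 versus G1. The latter include genes with totals below 100. Below, all genes means the base of the share quoted. Shares called on unlike bases are not directly comparable between comparisons.

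At an unadjusted p under 0.05 in the authors' deposited tables, 6 members were higher in G4 than in G2 and 0 lower, against 5.23% and 3.83% of all genes with a total of at least 100. The 6 were Atp5d, Cox6a1, Cox8a, Uqcrfs1, Uqcrq and the retrocopy Cox5b-ps. For G3 versus G1 the authors' deposited table had 0 higher and 1 lower, against 2.9% and 2.73% of those genes. In G4 versus G3 the counts were 1 and 0 in the authors' deposited table, against 2.36% and 2.48%. In G2 versus G1 they were 0 and 2, against 1.09% and 1.26%. Members were measured more precisely than most genes, since their standard error implied by the deposited log2 and p had a median of 0.079 on the log2 scale in each comparison, against 0.176 to 0.178 over all genes with a total of at least 100.

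This precision bounds the differences. The 95% interval of the fold change lay wholly within 1.2-fold either way for 32 of 47 members in G4 versus G2, 31 in G3 versus G1, 32 in G4 versus G3 and 38 in G2 versus G1. Over all genes with a total of at least 100 the shares were 14.8%, 15.4%, 14.7% and 19.2% in the same order. For complex V, 15 of 17 members were held within 1.2-fold in G4 versus G2, 12 in G3 versus G1, 14 in G4 versus G3 and 16 in G2 versus G1. A limit of 1.1-fold was met by 1 or 2 members in each comparison, so for the others a difference beyond 1.1-fold lay within the interval. The intervals rest on the deposited log2 and p and do not cover how reads shared with near copies were divided. For members with near copies, several of them in complex V, these limits are therefore uncertain. In whole muscle, fewer fibres or cells of a type and less RNA per cell cannot be told apart.

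**Figure D3:**
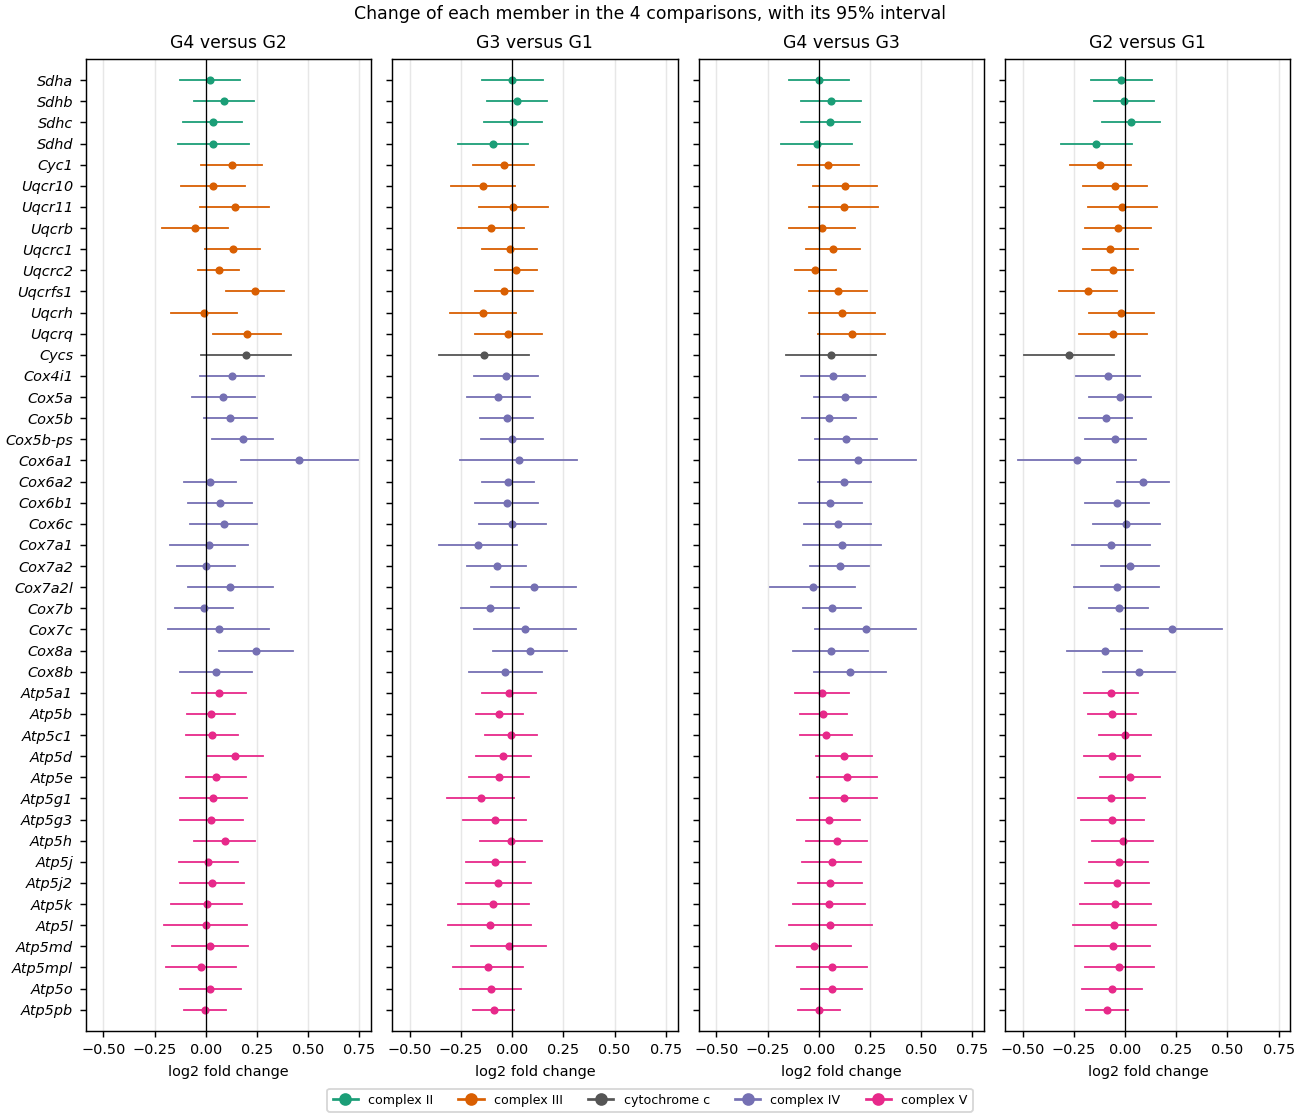
Log2 fold change of each member with a total of at least 1000 normalised reads in the 4 comparisons, coloured by complex, with lines for the 95% interval from the implied standard error. Most intervals cross 0, and in G4 versus G2 those of 6 members lie above it, among them Cox6a1, at 0.46, Cox8a, at 0.25, and Uqcrfs1, at 0.24.

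Complex II lay close to 0. The implied levels of Sdha were 21648 in G4, 21607 in G3, 21329.7 in G2 and 21600.3 in G1. Its log2 fold change in the authors' deposited tables was 0.021 in G4 versus G2 and 0.00045 in G3 versus G1, each with an implied standard error of 0.075. Sdhb had 0.089 in G4 versus G2 in the authors' deposited table, the highest of the 4, and Sdhd had -0.14 in G2 versus G1 (adjusted p = 1), the lowest value of complex II in the 4 comparisons. Sdhc, the other anchor, had 0.034 in G4 versus G2, 0.0040 in G3 versus G1 and 0.058 in G4 versus G3 in the authors' deposited tables and a rebuilt 0.028 in G2 versus G1. All 4 members had an interval within 1.2-fold in G4 versus G2 and in G4 versus G3, and 3 did in G3 versus G1 and in G2 versus G1.

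In complex III the member nearest to the threshold was Uqcrfs1, the Rieske iron-sulfur protein, which takes an electron from ubiquinol. Its implied levels were 10409 in G4, 9740.5 in G3, 8813 in G2 and 10004 in G1, so G2 was the low group. Uqcrfs1 had a log2 fold change of 0.24 in the authors' deposited table for G4 versus G2, with an implied standard error of 0.072, an unadjusted p of 0.000895 and an adjusted p = 0.0603. It was called only when p-values were adjusted over genes with a total of at least 1000 (adjusted p = 0.0492), and it stood at 0.18 (adjusted p = 0.315) once a trend of log2 with GC content, transcript length and total was removed. The authors' deposited table for G2 versus G1 gave -0.18 with an unadjusted p of 0.0114 and an adjusted p = 1.

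The difference between G4 versus G2 and G3 versus G1 is called the interaction here, since the authors' tables leave out G4 versus G1 and G3 versus G2, but the labels do not say that these pairs differ in both genotype and diet. It was 0.28 for Uqcrfs1 with a standard error of 0.10 and an adjusted p = 0.970. The unadjusted p of Uqcrfs1 in the interaction, 0.00641, was the lowest of all members. Uqcrq, a small structural subunit, had 0.20 in G4 versus G2 (adjusted p = 0.333) and 0.16 in G4 versus G3 (adjusted p = 0.9997) in the authors' deposited tables. Cyc1, cytochrome c1, had 0.13 in G4 versus G2 and -0.12 in G2 versus G1 in the authors' deposited tables, and the core subunits Uqcrc1 and Uqcrc2 had 0.13 and 0.063 in G4 versus G2. The lowest value of complex III in G3 versus G1 was that of Uqcrh, the hinge protein that docks cytochrome c, with -0.14. In G4 versus G2 it was that of Uqcrb with -0.053, both in the authors' deposited tables. All 9 members had negative values in G2 versus G1, with -0.18 for Uqcrfs1 and -0.014 for Uqcr11 as the extremes in the authors' deposited table. None of these values passed the test.

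Cycs had implied levels of 3278 in G4, 3149 in G3, 2859 in G2 and 3462 in G1, so G2 was lowest here too. Cycs had a log2 fold change, in the authors' deposited tables, of 0.20 in G4 versus G2 (adjusted p = 0.629) and -0.28 in G2 versus G1, with an unadjusted p of 0.0139 and an adjusted p = 1. Summed with its near copies the values were 0.12 and -0.17. Its copies Gm10053, Gm10108 and Gm13772 had 0.091, 0.18 and -0.034 in G4 versus G2 in the authors' deposited table.

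In complex IV the ubiquitous isoforms Cox6a1 and Cox8a had larger values in G4 versus G2 than the muscle isoforms, and none passed the test. Cox6a1 had implied levels of 510.2 in G4, 447 in G3, 371.5 in G2 and 437.5 in G1, with G4 highest and G2 lowest. Its log2 fold change in the authors' deposited table for G4 versus G2 was 0.46 with an implied standard error of 0.15, an unadjusted p of 0.00176 and an adjusted p = 0.0915. Cox8a had 0.25 with a standard error of 0.093 and an adjusted p = 0.229 in the same deposited table of the authors. The muscle isoforms Cox6a2, Cox8b and Cox7a1 had 0.019, 0.051 and 0.014 there, with adjusted p-values from 0.952 to 0.993 in the authors' deposited table. The difference in log2 between isoforms was -0.44 for Cox6a2 minus Cox6a1 and -0.19 for Cox8b minus Cox8a in G4 versus G2, while Cox7a1 minus Cox7a2 came to 0.013. Differences between isoforms have no test, since the tables do not show how 2 genes vary together across mice.

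The ratios of isoforms did not keep 1 direction across comparisons. In G2 versus G1, Cox6a2 minus Cox6a1 was 0.32 and Cox8b minus Cox8a 0.17. G2 stands on opposite sides in G4 versus G2 and G2 versus G1, so their opposite signs are not separate observations. Cox7a1 had the lowest value of complex IV in G3 versus G1, -0.17 (adjusted p = 1) in the authors' deposited table, and Cox7c the highest in G4 versus G3, 0.23 (adjusted p = 0.9997). Cox7c also had a rebuilt 0.23 in G2 versus G1, and summed with its near copies its values were 0.13 and -0.022. Cox4i1 had 0.13 in G4 versus G2 and -0.031 in G3 versus G1 in the authors' deposited tables, and Cox4i2, with implied levels of 59.5 in G4, 63.9 in G3, 65.3 in G2 and 58.7 in G1, had -0.13 and 0.12 with a standard error of 0.29. Cox7a2l, a factor that joins complexes III and IV, had 0.12 in G4 versus G2 and 0.11 in G3 versus G1 in the authors' deposited tables. Cox5b-ps had 0.18 in G4 versus G2 (adjusted p = 0.345) in the authors' deposited table, and 0.15 when summed with Cox5b, which carries the zinc-binding subunit and had 0.12 alone.

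Cox6b2 was close to undetected, with implied levels of 9.27 normalised reads per library in G4, 7.42 in G3, 4.16 in G2 and 5.61 in G1. In the authors' deposited table for G4 versus G2 its log2 of 1.16 had no adjusted p, and its implied standard error was 0.69.

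In complex V the values farthest from 0 belonged to Atp5g2, and they rested on few reads. Its implied levels were 37.1 in G4, 12.7 in G3, 38.4 in G2 and 33.5 in G1, so G3 was the low group. Atp5g2 had a log2 fold change, in the authors' deposited tables, of -1.41 in G3 versus G1 (unadjusted p of 0.00595, adjusted p = 0.798) and 1.55 in G4 versus G3 (unadjusted p of 0.00244, adjusted p = 0.660), each with an implied standard error of 0.51. Summed with its copies the values were -0.029 and 0.17, and Gm10175 alone had -0.024 and 0.17 in the authors' deposited tables. The other ring genes, Atp5g1 and Atp5g3, had -0.15 and -0.086 in G3 versus G1 and 0.12 and 0.049 in G4 versus G3 in the authors' deposited tables.

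The beta and alpha subunits stayed close to 0. Atp5b had implied levels of 68962 in G4, 67875 in G3, 67779.8 in G2 and 70913 in G1, and Atp5a1 had 62768, 62115, 59985 and 62885 in the same order. Their log2 fold changes in G4 versus G2 were 0.025 and 0.065 in the authors' deposited table, with implied standard errors of 0.059 and 0.067. Atp5c1, the gamma subunit of the rotor, had 0.032 in the same deposited table of the authors. Atp5d, the delta subunit of the rotor, had the highest value of complex V in G4 versus G2, 0.14 with an unadjusted p of 0.0379 and an adjusted p = 0.483 in the authors' deposited table. Its value was 0.031 (adjusted p = 0.982) once a trend with GC content, length and total was removed, and Atp5h, subunit d of the stalk, was then highest with 0.043. All 17 members had negative values in G3 versus G1, with -0.0051 for Atp5c1 nearest to 0 in the authors' deposited table. In G4 versus G3, 16 of 17 were positive, the exception being Atp5md, a small subunit that helps ATP synthase pair into dimers, with -0.025 in the authors' deposited table. In G2 versus G1 the lowest value was that of Atp5pb, subunit b of the stalk, with -0.088 (adjusted p = 1) in the authors' deposited table.

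Although no member was called, the small values leaned one way in each comparison. In G4 versus G2, 39 of 47 members were positive with a median log2 of 0.037, against 50.1% of all genes with a total of at least 100 and their median of 0.00034. In G3 versus G1, 11 of 47 were positive with a median of -0.038, against 50.1%. In G4 versus G3, 42 of 47 were positive with a median of 0.064, against 50.9%, and in G2 versus G1, 10 of 47 were positive with a median of -0.048, against 49.7%. These comparisons share groups, so their leanings are not separate observations, and members that vary together across mice would lean together. Implied levels summed over all members were 417246 in G4, 402356 in G3, 399933 in G2 and 413952 in G1, so the spread over the groups was small beside the levels.

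Of the 4 complexes, III had the highest median in G4 versus G2, and V the lowest in G3 versus G1. By complex, medians in G4 versus G2 were 0.13 for complex III, 0.078 for complex IV, 0.035 for complex II and 0.025 for complex V. In G3 versus G1 they were -0.082 for complex V, -0.038 for complex III, -0.023 for complex IV and 0.0022 for complex II. In G4 versus G3 complexes III and IV had 0.096 and 0.097, complex V 0.057 and complex II 0.030. In G2 versus G1 they ran from -0.059 for complex III to -0.012 for complex II.

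In the interaction 46 of 47 members were positive, against 51.5% of all genes, with a median of 0.099, and the exception was Cox4i2 with -0.25. None was called, against 0% of all genes called higher and 0.00645% called lower. At an unadjusted p under 0.05 there were 3 positive members, Uqcrfs1, Cycs and Cox6a1, and 0 negative, against 1.99% and 2.13% of all genes, and 7 of 47 members had an interval within 1.2-fold, against 3.36%. For Cycs the interaction was 0.33 with a standard error of 0.16 and for Cox6a1 0.43 with a standard error of 0.21, both with adjusted p = 0.9997. Averaged over G3 versus G1 and G4 versus G2, members had a median of 0.0091 with 26 of 47 positive, against 49.2% of all genes, and averaged over G2 versus G1 and G4 versus G3 one of 0.016 with 28 of 47 positive, against 49.7%. No member was called in either average. In the first, 1.21% of all genes were called higher and 0.439% lower, and in the second 0.00645% and 0.0387%. At an unadjusted p under 0.05 the first had 3 members higher and 1 lower, against 5.56% and 4.18% of all genes, and the second 3 and 0, against 1.45% and 1.67%.

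The members' medians and counts depended on a trend of log2 with gene properties, among the 4 comparisons most in G4 versus G3 and least in G2 versus G1. Such a trend with GC content, transcript length and total was fitted over genes with a total of at least 100 and a matched transcript. Genes with a smaller implied standard error weighed more in the fit. Once the trend was removed, the median of the 46 members with annotation was 0.0036 in G4 versus G2 and -0.019 in G3 versus G1. It was -0.0018 in G4 versus G3, -0.036 in G2 versus G1 and 0.019 in the interaction. The counts of positive members were then 23, 18, 21, 11 and 33 of 46, against 39, 11, 42, 10 and 46 of 47 as deposited or rebuilt. For complex V, 6 of 16 members were then positive in G4 versus G3, 3 of 16 in G3 versus G1 and 4 of 16 in G4 versus G2, and its median in G4 versus G3 was -0.020 in place of 0.057. In G4 versus G3, 4 of 9 members of complex III and 9 of 16 of complex IV were then positive. In G4 versus G3 the median of all members thus changed sign, and in G4 versus G2 complex V had -0.034 in place of 0.025. Among the 4 complexes, complex III kept the highest median in G4 versus G2, 0.045, and complex V the lowest in G3 versus G1, -0.048.

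**Figure D4:**
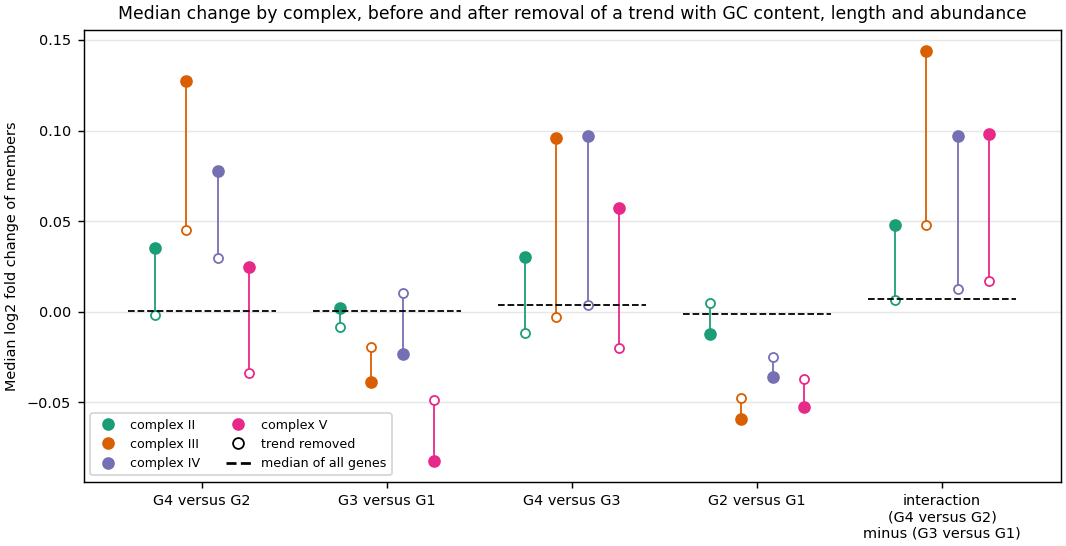
Median log2 fold change of the members of each complex in the 4 comparisons and in the interaction. Filled points are values as deposited or rebuilt, open points are those after removal of a trend with GC content, transcript length and total, and dashed lines are the median of all genes with a total of at least 100. Open points of the 4 complexes lie nearer to 0 in G4 versus G3, where complex IV goes to 0.0037 with the trend removed, against 0.097 as deposited.

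Promoters were searched because genes of this group are known targets of the nuclear respiratory factors NRF1 and NRF2 (GABP) and of the estrogen-related receptors (ERR). RefSeq windows from 250 bases before to 50 after the start (GRCm38.p6) were available for 36 members, and each motif was searched on both strands. The NRF1 core GCGCATGC was in 8 of 36 members, 22.2%, a gene with more than 1 window being counted once, against 3.05% of all 27025 genes with a window and 5.65% of those with a total of at least 100. The GABP core CCGGAAG was in 13 members, 36.1%, against 9.93% and 19.3%. The ERR core AAGGTCA was in 5 members, 13.9%, against 5.38% and 3.95%, and no motif's letters contain another's. A match is a description of the letters and not a bound site.

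The promoters of the 3 members with the lowest p in G4 versus G2 are shown to set their sequence beside their values. Each is the part of the window outside annotated transcripts, on the minus strand of GRCm38.p6, 5′ to 3′, with motif matches in capitals. The positions are chr13:30545363-30545566 for Uqcrfs1, chr5:115348982-115349208 for Cox6a1 and chr19:7217617-7217866 for Cox8a:

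Uqcrfs1: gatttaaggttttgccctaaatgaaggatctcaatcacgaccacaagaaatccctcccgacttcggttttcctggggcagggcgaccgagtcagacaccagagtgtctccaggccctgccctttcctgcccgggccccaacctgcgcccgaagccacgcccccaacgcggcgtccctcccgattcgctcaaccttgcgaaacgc
Cox6a1: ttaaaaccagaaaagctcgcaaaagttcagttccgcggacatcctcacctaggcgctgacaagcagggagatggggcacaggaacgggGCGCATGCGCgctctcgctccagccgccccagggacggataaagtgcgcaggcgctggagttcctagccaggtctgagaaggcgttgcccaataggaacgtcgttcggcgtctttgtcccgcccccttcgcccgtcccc
Cox8a: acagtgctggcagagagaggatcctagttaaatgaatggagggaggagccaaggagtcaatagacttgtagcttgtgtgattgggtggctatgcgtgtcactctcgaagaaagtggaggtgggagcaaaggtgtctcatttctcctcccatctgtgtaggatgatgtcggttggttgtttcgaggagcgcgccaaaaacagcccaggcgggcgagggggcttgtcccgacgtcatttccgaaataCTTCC

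The capitals of Cox6a1 are the NRF1 core on both strands, overlapping itself, and its GABP match lies downstream of the printed part. Those of Cox8a are the first letters of a GABP match that runs past the printed end. The letters searched are not in the window of Uqcrfs1.

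The factors that assemble the complexes were not called either. Of 38 assembly and expression factors, which build the complexes or insert their hemes and copper, 37 had a total of at least 100, and 0 were called in any comparison. The largest shares of all genes called in a comparison were 1.21% higher and 0.439% lower. Their median log2 was 0.075 in G4 versus G2, -0.040 in G3 versus G1, 0.030 in G4 versus G3 and -0.091 in G2 versus G1. In the interaction their median was 0.12, with 31 of 37 positive, against 51.5% of all genes. A list of 12 symbols for further subunits or associated proteins included Usmg5, another symbol of the member Atp5md. Of the 12 symbols, 9 were listed and 0 were called, against the same shares of all genes. Among them Ndufa4, a subunit of complex IV that the symbol rule misses, had 0.052 in G4 versus G2 in the authors' deposited table.

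All 6 mitochondrially encoded subunits of complexes III to V were positive in G4 versus G2, with a median of 0.22, and in G3 versus G1, with a median of 0.15, where the nuclear members had 0.037 and -0.038. They had a median of -0.015 in G4 versus G3, where the nuclear members had 0.064, and of -0.12 in G2 versus G1, where the nuclear members had -0.048. With the trend removed, the 6 lay between -0.15 and 0.058 in G4 versus G3, and the median of the nuclear members was -0.0018. Of the 6, 0 were called in any of the authors' deposited tables, where at most 1.02% of all genes were called higher and 0.351% lower. The nearest was mt-Co1, which holds the site of oxygen reduction, with 0.21 in the authors' deposited table for G4 versus G2 (adjusted p = 0.0934). Averaged over G3 versus G1 and G4 versus G2, mt-Co1 alone of the 6 was called, against 1.21% of all genes called higher and 0.439% called lower. Whether nuclear and mitochondrial subunits differed in any comparison was not tested.

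Markers of fibres and other cells are given beside the members. All 10 slow fibre markers were negative in G4 versus G2, with a median of -0.23, and positive in G2 versus G1, with a median of 0.33, so that their summed implied level was 650836 in G4, 603759 in G3, 769123 in G2 and 602114 in G1. All 11 fast fibre markers were negative in G4 versus G2 and in G3 versus G1, with medians of -0.21 and -0.38, and summed to 794505, 731646, 874543 and 971225 in the same order of groups. None of these was called in a deposited comparison, where at most 1.02% of all genes were called higher and 0.351% lower. Casq1, the calcium buffer of fast fibres, was called lower in the average of G3 versus G1 and G4 versus G2, against 0.439% of all genes. At an unadjusted p under 0.05, 7 slow markers were higher in G2 than in G1, against 1.09% of all genes. In G4 versus G2, 4 slow markers and 1 fast marker were lower, against 3.83%. In G3 versus G1, 6 fast markers were lower, against 2.73%. Neither list had other such markers in the 4 comparisons. Myh2, listed alone for fast oxidative fibres, had -0.10 in G4 versus G2 in the authors' deposited table.

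Of the other cells in muscle, all 6 endothelial markers were positive in G4 versus G2, with a median of 0.21 and summed implied levels of 11201 in G4, 10486 in G3, 9516 in G2 and 10282 in G1. All 5 erythroid markers were positive in that comparison too, with a median of 0.40 and summed levels of 3687, 4234, 2788 and 4463 in the same order. The 6 white adipocyte markers measured had a median of 0.46 in G4 versus G2, where 4 were positive and values ran from -0.64 to 0.81. Their median was -0.77 in G2 versus G1, where 0 were positive. With Adrb3, which had a total below 100, the 7 listed white adipocyte markers summed to 848, 767, 779 and 1328. No endothelial, erythroid, white adipocyte or macrophage marker was called in any comparison, against at most 1.21% of all genes called higher and 0.439% called lower. The macrophage markers, also 6, had a median of -0.11 in G4 versus G2, where 2 were positive. Their median was -0.39 in G2 versus G1, where 0 were positive, and they summed to 1175, 1509, 1254.5 and 1589.6. Of the brown adipocyte markers Ucp1 was not listed, and Cidea, a lipid droplet protein, was called higher in G3 versus G1, with 0.83, and in G4 versus G2, with 0.82, in the authors' deposited tables. The other brown adipocyte markers measured, Dio2 and Ppara, had 0.64 and -0.065 in G3 versus G1 and 0.11 and 0.071 in G4 versus G2 in the authors' deposited tables, and neither was called. The 4 listed brown adipocyte markers summed to 1282, 1268, 1148 and 1145, again in G4, G3, G2 and G1. Of 6 testis markers only the member Cox6b2 was listed. The part of these markers in the members' values was not tested.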

How the data were processed

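Stranded mRNA libraries came from the soleus of 12 mice, 3 per group, per the labels' protocols. The build was mm10 or GRCm38, and the tools were RSEM 1.2.15, which estimates how shared reads divide between transcripts, Bowtie2 2.1.0 and edgeR, per the submitters' processing notes. Their roles, and edgeR's version, are not given in the sources used here. The authors deposited 4 tables of comparisons. Per the file headers these hold a total count per gene, which the values show to be a signal of normalised reads summed over libraries, a p-value with its adjusted form, and the fold change both signed and as log2. The adjusted p-value columns of the authors hold blanks for some low genes, kept as blanks, and the signed fold change was deposited as a score that is never between -1 and 1. The depth was a mean of 24905255 normalised reads per library, and no value per library was used.

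The planned quasi-likelihood test of edgeR needs counts per library, so the authors' deposited p-values were used, and calls are adjusted p-values under 0.05. Standard errors were implied by each log2 and p under a normal distribution. Positive values of G2 versus G1, whose table lists 15652 of 28997 genes, were rebuilt as G3 versus G1 plus G4 versus G3 minus G4 versus G2. On 7792 listed genes with totals from 100 up, the rebuilt log2 differed by at most 1.02e-14. The interaction and the averages were built likewise and adjusted by the Benjamini-Hochberg procedure over 15494 genes with a total of at least 100. The tests' steps were tested on simulated data. Trends on GC content, log length and log total were fitted with splines of 4 degrees of freedom (statsmodels 0.14.6). Levels used principal transcripts of GENCODE M21, and 47 members were matched, 3 of them by synonym. Near copies came from blastn 2.17.0. Sequences are from GENCODE and RefSeq on GRCm38.

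Members and lists were chosen with earlier results of these data known. Named were members with an unadjusted p under 0.01, the highest and lowest of each complex in each comparison, the isoform pairs, the Sdh genes, Cyc1 and Cycs, and the highest and lowest levels per length. Members outside this rule were named after their values were seen.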

Additional observations from a re-analysis of the deposited data

How the results depend on the processing

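Of 70 alternative values for the counts of members called and their medians, 69 stayed on the same side of the threshold or moved by less than the median implied standard error of a member. The exception was the count of members called in G4 versus G2, which was 1 with only genes with a total of at least 1000, Uqcrfs1 (adjusted p = 0.0492), against 0 as reported. Each reported median was itself smaller than that standard error, so a median could change sign and still be counted as unmoved. Requiring a fold change of at least 1.5 as well could not raise a count of 0. The number of unmoved values therefore says little about the stability of the medians. Removing a trend with GC content, length and total changed no call but turned the sign of 3 medians, to -0.0018 against 0.064 as reported in G4 versus G3, to -0.0050 against 0.0091 in the average of G3 versus G1 and G4 versus G2, and to -0.022 against 0.016 in the average of G2 versus G1 and G4 versus G3. Atp5g2 had -0.029 in G3 versus G1 and 0.17 in G4 versus G3 when summed with its near copies, an alternative chosen after seeing the data, as were the limits of 1.1-fold, which 1 or 2 members met in each comparison. Leaving out each library in turn was not run, because the tables used hold no values for single libraries. No paired analysis was possible because the comparison columns carry no replicate numbers. Low totals limit Cox6b2, Atp5g2 and Cox4i2, and shared sequence limits the members with near copies.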
